A study of Mus musculus with 6 samples.

Results

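Pomc and Cartpt, 2 genes of the 27514 that all 3 deposited gene tables share, were followed through every nucleus of a single-nucleus RNA series of mouse hypothalamus. They were chosen by name, and their levels were read across neuron classes, diets, genotypes and treatments, in single nuclei that held both, and in pituitary nuclei that had been captured along with the brain. Pomc encodes pro-opiomelanocortin, a precursor that is cut into alpha-MSH and beta-endorphin in the arcuate nucleus of the hypothalamus and into ACTH in the pituitary. Alpha-MSH restrains feeding through the melanocortin receptors Mc3r and Mc4r, and Agrp blocks it there. Cartpt encodes the CART prepropeptide, a feeding-related neuropeptide precursor made in arcuate Pomc neurons and, far from them, in the melanin-concentrating hormone (Pmch) neurons of the lateral hypothalamus. Leptin, the hormone of fat tissue, is known to act on arcuate neurons of this kind through its receptor Lepr.

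There were 3 kinds of mice: animals on chow, animals with diet-induced obesity (DIO, also labelled hfd), and ob/ob animals on chow (OB), whose leptin gene is not functional. Within each kind, mice received either rapamycin, which inhibits the growth kinase complex mTORC1, or vehicle. Hypothalamic nuclei were enriched for the neuronal protein NeuN by sorting and captured as 1 pool per kind, and antibody hashtags on the nuclear pore told the 2 treatments apart. Strain, age, dose and the number of mice behind a hashtag are not given in the labels, so each pool and treatment is 1 sample. No comparison below carries a test, and brackets give 95% intervals that cover counting error alone, while mice and nuclei vary more than that.

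A level below is the number of unique molecular identifiers (UMIs, counted RNA molecules) of the gene per 1000000 UMIs in the summed nuclei, written CPM. The pools held 10853 chow, 11405 DIO and 12283 OB nuclei, with median depths of 5826, 5572 and 2805 UMIs. Neurons kept after removing hashtag doublets were 9763, 10309 and 8865, and the neuron profile took 94.9%, 94.3% and 76.5% of all nuclei. Neurons per hashtag ran from 4328 to 5750 in chow and DIO, but in OB they numbered 4707 for rapamycin and 1547 for vehicle, since 3721 OB nuclei had no clear hashtag. Between 31 and 38 barcodes were shared by any 2 pools. The OB pool was also shallower and was counted against other gene models, so its differences from chow cannot be told apart from those of the library.

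A start region of each of the 2 genes is shown because the genes are read side by side throughout. Each is the 250 bases before a transcript start that RefSeq lists (GRCm38.p6, the assembly also called mm10), 5′ to 3′ on the gene's own strand, with motif matches in capitals. Pomc lies on chromosome 12 at 3954945 to 3960643 on the plus strand, and its window is chr12:3954695-3954944. Cartpt lies on chromosome 13 at 99898483 to 99910179 on the minus strand, and its window is chr13:99900684-99900933. That window lies inside the Cartpt span, because it precedes the start in the promoter table, while the span in the gene table reaches further upstream.
Pomc: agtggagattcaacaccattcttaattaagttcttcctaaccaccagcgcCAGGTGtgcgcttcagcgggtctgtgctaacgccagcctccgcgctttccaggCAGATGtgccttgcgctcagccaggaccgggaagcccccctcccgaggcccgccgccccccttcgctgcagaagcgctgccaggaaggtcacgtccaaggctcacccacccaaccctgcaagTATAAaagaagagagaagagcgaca
Cartpt: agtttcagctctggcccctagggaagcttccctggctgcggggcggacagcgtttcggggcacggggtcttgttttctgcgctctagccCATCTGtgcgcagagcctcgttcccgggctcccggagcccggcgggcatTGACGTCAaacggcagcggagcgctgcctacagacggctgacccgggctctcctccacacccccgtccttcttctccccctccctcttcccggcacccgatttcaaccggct

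Both strands were searched for TATAA (the TATA box core), TGACGTCA (the cyclic AMP response element), CANNTG (the E-box) and TTCNNNGAA (the STAT site). The Pomc window held TATAA from 25 to 21 bases before the start and 2 E-boxes, from 200 to 195 and from 147 to 142 bases before it. The Cartpt window held TGACGTCA from 112 to 105 bases before the start and 1 E-box from 161 to 156. No match overlapped another motif, and TTCNNNGAA was in neither window. Of 32851 RefSeq windows of this length, 22.8% held TATAA, 1.55% TGACGTCA, 66.2% CANNTG and 7.02% TTCNNNGAA, and these matches are letters, with no factor binding measured here.

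Most Pomc RNA in the DIO and OB pools was in pituitary nuclei or outside plain neurons, whereas Cartpt RNA was neuronal in every pool. Neurons held 90.9% of the 1100 Pomc UMIs of chow, 46.0% of the 2780 of DIO and 16.9% of the 9239 of OB. Of the Cartpt UMIs they held 99.7% of 1195, 99.4% of 1393 and 97.6% of 286. The nuclei that carried most of the other Pomc resembled pituitary cells with Pax7 and Tbx19, factors of the Pomc-making melanotroph and corticotroph cells. Such nuclei were counted 1 time in the chow pool, 15 times in the DIO pool and 81 times in the OB pool, and each one held Pomc.

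**Figure D1:**
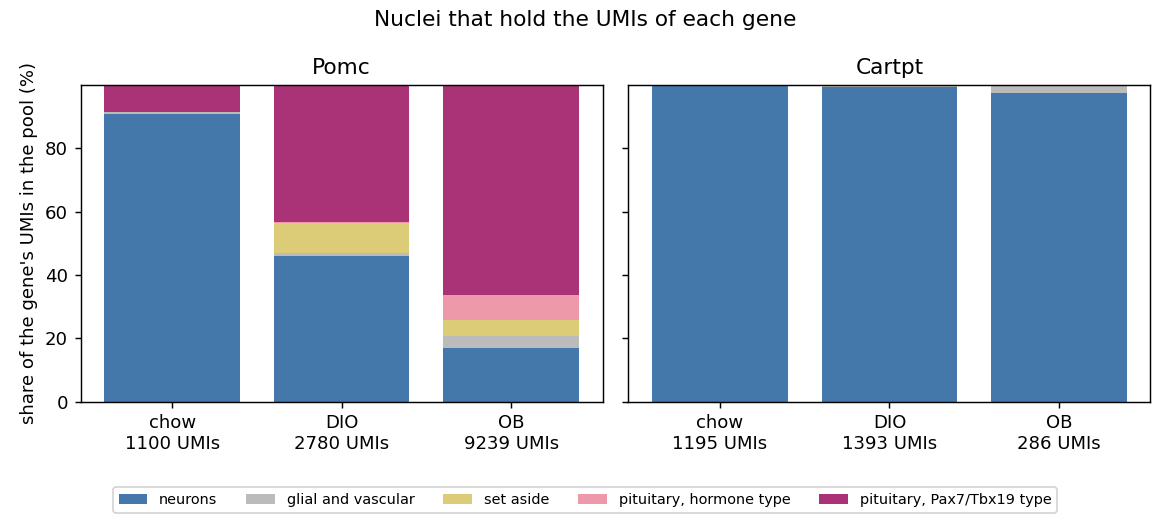
Share of all Pomc UMIs (left) and Cartpt UMIs (right) of each pool, in percent, by the kind of nucleus that holds them, with the gene's total under each bar. Neurons hold 90.9% of Pomc in chow and 16.9% in OB, and they hold at least 97.6% of Cartpt in every pool.

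In the Pax7/Tbx19-type nuclei, the Pomc level was 21680 CPM [17540 to 26502] in the 1 chow nucleus, 23870 CPM [22539 to 25259] in DIO and 34868 CPM [34000 to 35752] in OB. Their median was 67 Pomc UMIs per nucleus in DIO and 45 in OB, and the highest count was 380 in OB. Cartpt was at 0 in each of them, which allows up to 59.6 CPM in DIO and 17.1 CPM in OB at 3 counts. The pituitary hormones Gh, Prl and Cga, which mark growth hormone, prolactin and glycoprotein hormone cells, did not pick these nuclei out. In DIO 4 of the 15 and in OB 6 of the 81 held any UMI of the 3 hormones.

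Nuclei with at least 5 UMIs over Gh, Prl and Cga came to 0 for chow, 25 for DIO and 90 for OB. Their Pomc level was 169 CPM [94.3 to 278] in DIO and 2864 CPM [2648 to 3093] in OB. With at least 20 hormone UMIs the OB level was 191 CPM [82.6 to 377] in 17 nuclei, and at the gate of 5 a single OB nucleus held 316 of the 648 Pomc UMIs, while 20 of the 90 nuclei held any. None of the 32 DIO nuclei and 3 of the 109 OB nuclei with 10 or more Pomc UMIs met the gate of 5. Pituitary nuclei were therefore told apart by their whole profile, with Pomc and Cartpt left out of it, as well as by the 3 hormones.

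Pituitary nuclei of the Pax7/Tbx19 type were split unevenly between treatments. In DIO, 15 carried the rapamycin hashtag and 0 the vehicle hashtag, or 0.250% [0.140 to 0.411] against 0 of 4541 nuclei, where 0 of 4541 allows up to 0.0812%. In OB, 2 carried rapamycin and 45 vehicle, or 0.0358% [0.0043 to 0.129] against 1.91% [1.40 to 2.55]. Over all nuclei of a pool this turned the Pomc ratio of rapamycin to vehicle to a log2 of 1.57 in DIO and -3.79 in OB. Unless glial, pituitary or all nuclei are named, every further value is for neurons, without 5 chow, 8 DIO and 12 OB neurons that held 3 or more UMIs of the pituitary genes Pitx1, Tbx19, Pax7 and Oacyl and were set aside.

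**Figure D2:**
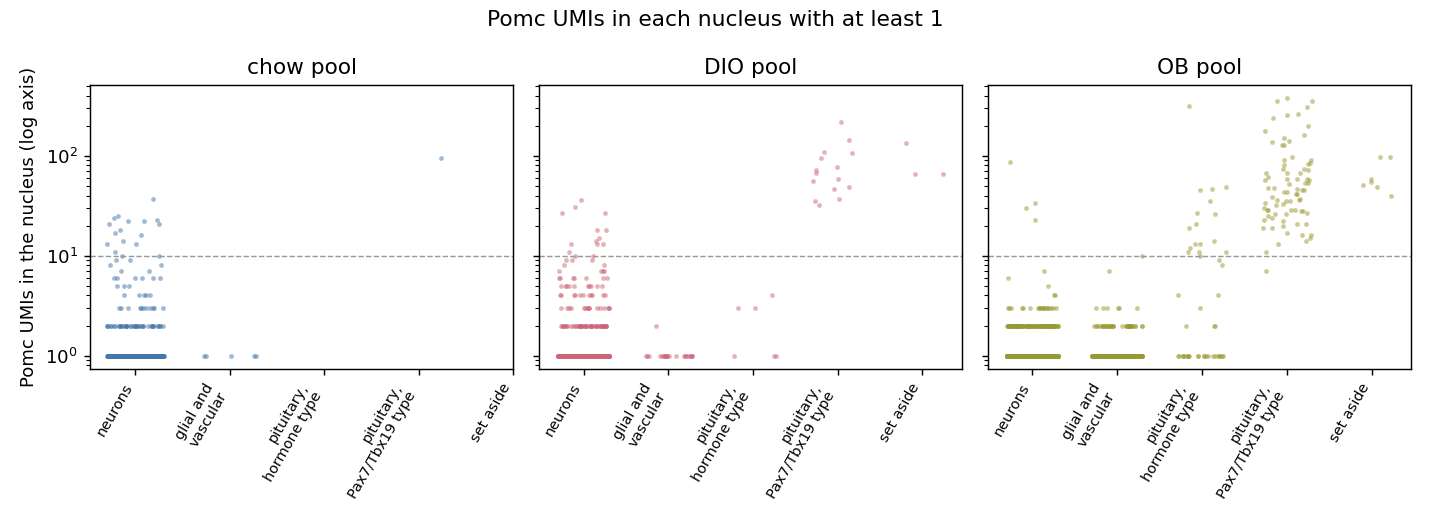
Pomc UMIs (log axis) in each nucleus with at least 1, by kind of nucleus and pool, 1 point per nucleus, with a dashed line at 10. Neurons of chow and DIO reach 37 and 36 UMIs, and the Pax7/Tbx19-type pituitary nuclei of OB reach 380.

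Single Pomc UMIs occurred outside neurons as well, at a level that differed between pools. Glial and vascular nuclei, which should lack the gene, held 4.10 CPM [1.33 to 9.56] in chow, 19.2 CPM [12.2 to 28.8] in DIO and 96.7 CPM [87.1 to 107] in OB. All neurons held 16.02 CPM [15.05 to 17.05], 19.8 CPM [18.7 to 20.9] and 49.2 CPM [46.8 to 51.7]. By CPM, the mean neuronal Pomc level was thus above the glial one in chow only, near it in DIO and below it in OB. A single UMI weighs more in CPM in a shallow nucleus, and the glia were shallower. How much of the OB mean is background was not tested. The 28 OB neurons with 3 or more Pomc UMIs held Lepr in 32.1% [15.9 to 52.4], against 6.89% of neurons with under 2 UMIs of Pomc and Cartpt. Asb4 was in 10.7% against 5.79% and Npy1r in 3.57% against 2.31%. A UMI of Pomc was seen in 5.51% of chow, 7.63% of DIO and 13.7% of OB neurons, against 0.931%, 3.74% and 12.1% of glial nuclei, whose median depths were 1979, 1874 and 1324 UMIs against 5885, 5659 and 3220 in neurons. Thinned to 2000 UMIs per nucleus, with 32, 81 and 1316 shallower neurons left out, the neuronal shares were 2.10%, 3.37% and 8.40%.

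Cartpt stood above its glial level in every pool. Neurons held 19.1 CPM [18.015 to 20.2] in chow, 21.4 CPM [20.2 to 22.5] in DIO and 8.81 CPM [7.81 to 9.91] in OB. Glial and vascular nuclei held 3.28 CPM [0.893 to 8.39], 5.84 CPM [2.35 to 12.035] and 1.58 CPM [0.579 to 3.43]. The shares of neurons with a UMI were 5.46%, 6.28% and 2.30%, or 2.27%, 2.89% and 1.48% after thinning.

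Both genes were concentrated in few neurons. Neurons with 3 or more Pomc UMIs were 48, 67 and 28 for chow, DIO and OB and held 46.9%, 39.9% and 16.5% of the neuronal Pomc UMIs. Those with 3 or more Cartpt UMIs numbered 87, 153 and 13 and held 56.2%, 58.7% and 23.7% of the Cartpt UMIs. In OB most UMIs of either gene were therefore singles and pairs.

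The strongest Pomc neurons of chow and DIO each held at least 1 gene of arcuate Pomc neurons, and the few of OB held none. Neurons with 10 or more Pomc UMIs numbered 17 in chow, from 10 to 37 UMIs with a median of 18, and 14 in DIO, from 10 to 36 with a median of 14.5. All 17 and all 14 held a UMI of at least 1 of Cartpt, Tbx3, Prdm12, Nr5a2, Asb4, Lepr and Npy1r, genes seen in arcuate Pomc neurons, and Lepr itself was in 13 of each. Among neurons with under 2 UMIs of Pomc and Cartpt, Lepr was in 9.15% for chow and 10.6% for DIO. Asb4 was in 8.37% and 7.36% of those, and Npy1r in 3.43% and 4.08%. Their share with any gene of the set was not counted. The 4 OB neurons with 10 or more Pomc UMIs, from 23 to 87, held none of the set, and 0 of 4 allows up to 60.2%. Whether these 4 are arcuate neurons or carry RNA of pituitary cells was not tested.

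Neuron classes were set by UMIs of marker genes, never by Pomc or Cartpt, and a nucleus can be in more than 1 of the 21 classes. Among classes of more than 20 neurons, Pomc was highest in the Tbx3/Prdm12/Nr5a2 and Lepr classes in chow and DIO. In neurons with 2 or more UMIs of Tbx3, Prdm12 and Nr5a2, factors of arcuate Pomc neurons, the level was 166 CPM [137 to 199] in 98 chow neurons, 196 CPM [168 to 227] in 126 DIO neurons and 89.2 CPM [58.3 to 131] in 69 OB neurons. In neurons with 2 or more Lepr UMIs it was 101 CPM [88.4 to 115], 70.3 CPM [61.6 to 79.9] and 37.9 CPM [25.9 to 53.4]. The OB values of these classes overlap the 96.7 CPM of OB glia or lie below it.

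In chow and DIO the broad transmitter classes held less. GABAergic neurons, which use the inhibitory transmitter, held 18.1, 19.3 and 52.7 CPM of Pomc, and glutamatergic neurons 9.99, 12.1 and 33.8 CPM. The GABAergic value of OB was above that of the OB Lepr class, and was 36.3 CPM [31.4 to 41.9] without its top nucleus. Neurons with Sim1 and Otp, of paraventricular type, held 12.5, 5.87 and 34.8 CPM. In the Agrp/Npy class, the neurons that oppose Pomc neurons, there was no Pomc UMI in 32 chow and 11 DIO neurons and 5 UMIs in 66 OB neurons. In this class of chow, 3 counts would be 14.1 CPM, near the 16.02 CPM of all chow neurons. Pomc was seen in only 5.51% of all chow and 7.63% of all DIO neurons. Zeros in classes this small therefore cannot show whether Agrp/Npy neurons of chow or DIO hold less Pomc than neurons at large. The highest level of chow, 192 CPM [105 to 323] in 10 chow neurons with Vip, Nms or Prok2, genes of the body clock nucleus, came mainly from 1 nucleus with 10 of the 14 UMIs and was 62.1 CPM [16.9 to 159] without it. In DIO the same class of 14 neurons held 229 CPM [140.05 to 354], and 90.3 CPM [36.3 to 186] without the nucleus with 13 of its 20 UMIs.

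Cartpt was highest in the Pmch class in chow and OB, and was also above the mean of all neurons in the Lepr and Tbx3/Prdm12/Nr5a2 classes of chow and DIO. In neurons with 5 or more UMIs of Pmch, the level was 624 CPM [557 to 696] in 49 chow neurons, 194 CPM [161 to 231] in 68 DIO neurons and 532 CPM [395 to 701] in 20 OB neurons. Cartpt was seen in 55.1%, 44.1% and 55.0% of them, and Pomc was at 3.91, 12.4 and 31.9 CPM there. In the Lepr class Cartpt was at 73.1 CPM [62.5 to 85.0], 124 CPM [112 to 137] and 10.6 CPM [4.87 to 20.2]. In the Tbx3/Prdm12/Nr5a2 class it was at 57.2 CPM [40.9 to 77.9], 72.3 CPM [55.9 to 92.0] and 0 in OB, where 3 counts would be 10.3 CPM.

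Smaller classes with Cartpt appeared in single pools. In DIO, Cartpt reached 285 CPM [174 to 441] in 9 Sst neurons, which make somatostatin, but 13 of the 20 UMIs were in 1 nucleus, and 112 CPM [44.9 to 230] remained without it. The 15 DIO neurons with 2 or more UMIs of Gal, the galanin precursor, held 190 CPM [116 to 293], of which 61.0 CPM [22.4 to 133] remained without the nucleus with 14 of the 20 UMIs. In chow, 34 neurons with Foxb1, a gene of the mammillary body, held 70.6 CPM [41.9 to 112], against 7.52 CPM [0.190 to 41.9] in DIO. The Foxb1 values were not recomputed without the top nucleus, so how far 1 nucleus carries them was not tested. In the Hcrt (orexin) class next to the Pmch neurons, Cartpt was at 3.90 CPM in chow and 0 in DIO and OB.

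**Figure D3:**
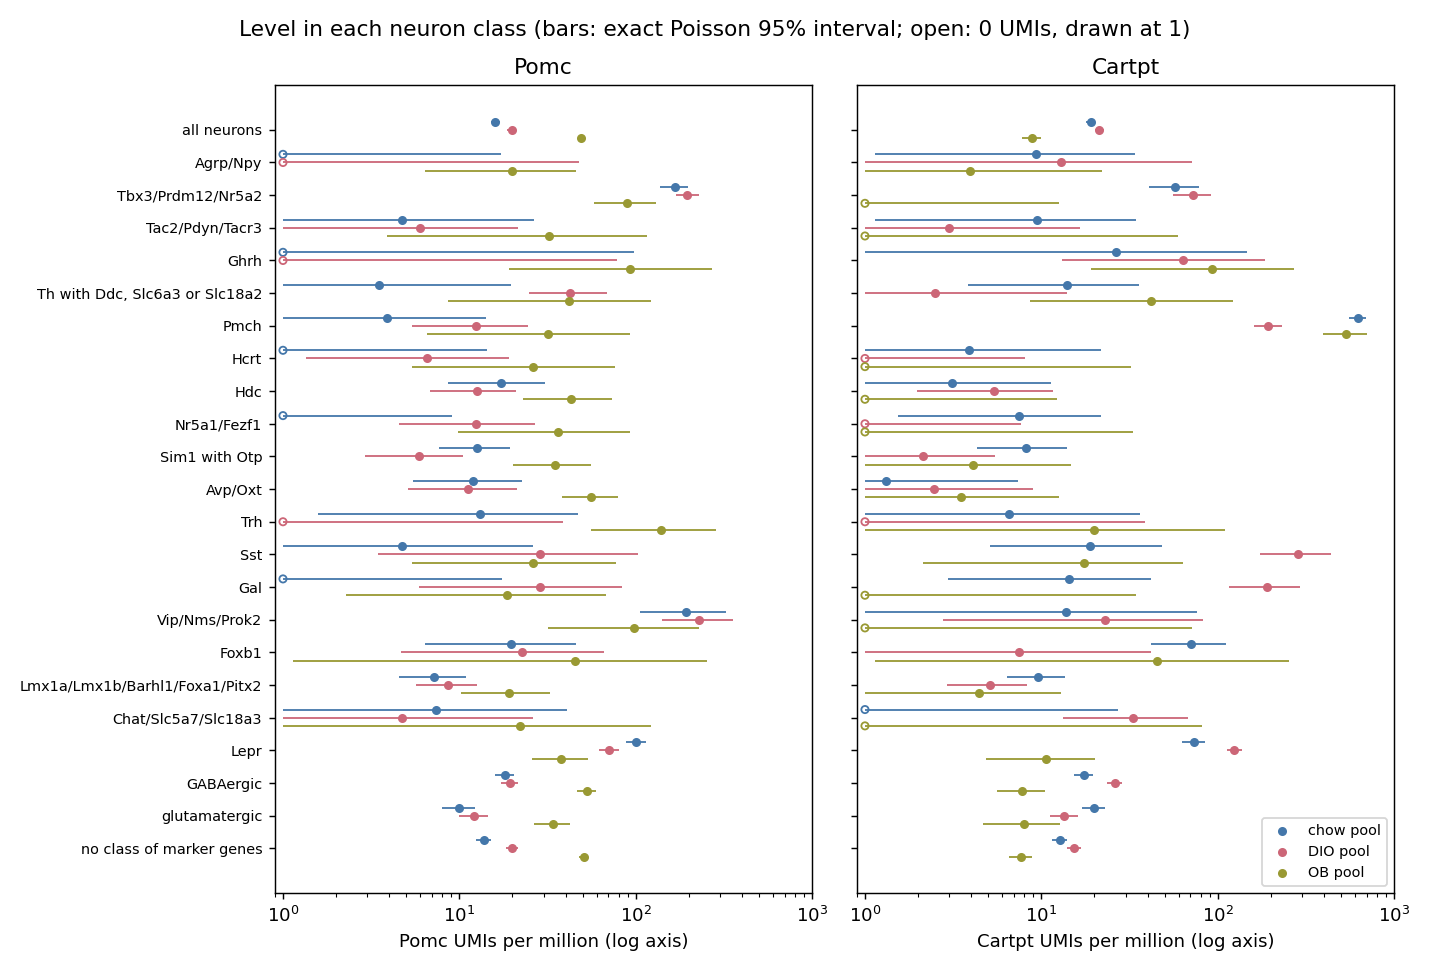
Pomc (left) and Cartpt (right) level in all neurons, each marker class and the neurons of no class, in CPM on a log axis, with 1 point per pool and exact Poisson 95% bars. Open points have 0 UMIs and are drawn at 1. Pomc peaks in the Tbx3/Prdm12/Nr5a2, Vip/Nms/Prok2 and Lepr classes of chow and DIO, and Cartpt in the Pmch class of chow and OB.

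Of the 87 chow neurons with 3 or more Cartpt UMIs, 23 were in the Pmch class, 12 had 2 or more Pomc UMIs, and 25 others had a Lepr UMI. In DIO the figures were 19, 18 and 70 of 153, and in OB 6, 0 and 1 of 13. Neurons with Lepr and strong Cartpt but under 2 Pomc UMIs were thus the largest of these groups in DIO, at 45.8% [37.7 to 54.0], with 28.7% [19.5 to 39.4] in chow. Lepr alone does not mark the arcuate nucleus. Of the 135 DIO neurons with 3 or more Cartpt and under 2 Pomc UMIs, 51.9% held Lepr and 34.8% [26.8 to 43.5] Asb4. Tbx3, Prdm12 or Nr5a2 was in 6.67% [3.09 to 12.3] and Npy1r in 9.63% [5.23 to 15.9]. In DIO neurons with under 2 UMIs of both genes the shares were 10.6%, 7.36%, 4.19% and 4.08%. Where these Cartpt neurons lie was not tested. None of the 48, 67 and 28 neurons with 3 or more Pomc UMIs was in the Pmch class. That class made up only 0.262%, 0.451% and 0.127% of the neurons with under 2 UMIs of both genes. Sets of this size would therefore mostly hold none, and the lack of overlap does not separate the 2 kinds. Of the neurons with 3 or more Pomc UMIs, 56.2% in chow and 61.2% in DIO held a Gad1 or Gad2 UMI, against 39.6% and 40.0% of the others. A UMI of Slc17a6, the glutamate transporter, was in 31.2% and 34.3%, near the 32.1% and 31.0% of the others.

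Cartpt was seen more often the more Pomc UMIs a chow or DIO neuron held. Among chow neurons with at least 1 Pomc UMI, 9.67% [7.30 to 12.5] held Cartpt, against 5.21% of the rest. In DIO it was 11.9% [9.76 to 14.4] against 5.81%, and in OB 3.05% [2.16 to 4.18] against 2.18%. At 3 or more Pomc UMIs the shares were 50% [35.2 to 64.8] of 48, 52.2% [39.7 to 64.6] of 67 and 3.57% [0.0904 to 18.3] of 28. At 10 or more they were 76.5% [50.1 to 93.2] of 17 in chow and 78.6% [49.2 to 95.3] of 14 in DIO.

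Depth moved with this, since neurons with 3 or more Pomc UMIs had median depths of 7373.5 in chow and 6313 in DIO against 5878 and 5654.5 in the rest. After thinning to 2000 UMIs, 7.84% [4.55 to 12.4] of chow neurons with Pomc held Cartpt against 2.15%, and 10.4% [7.42 to 14.2] of DIO neurons against 2.63%. In OB the thinned shares were 1.58% [0.759 to 2.88] and 1.48%, so no enrichment was detectable at this depth.

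In the reverse direction the overlap was smaller. Among neurons with 3 or more Cartpt UMIs, Pomc was seen in 18.4% [10.9 to 28.1] in chow and 20.9% [14.8 to 28.2] in DIO, against 5.39% and 7.43% of the rest. Of the 16 chow neurons with 10 or more Cartpt UMIs only 1 held Pomc, while in DIO 5 of 14 did. Most strong Cartpt neurons of these pools therefore had no Pomc UMI, and most of the strongest Pomc neurons had a Cartpt UMI.

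**Figure D4:**
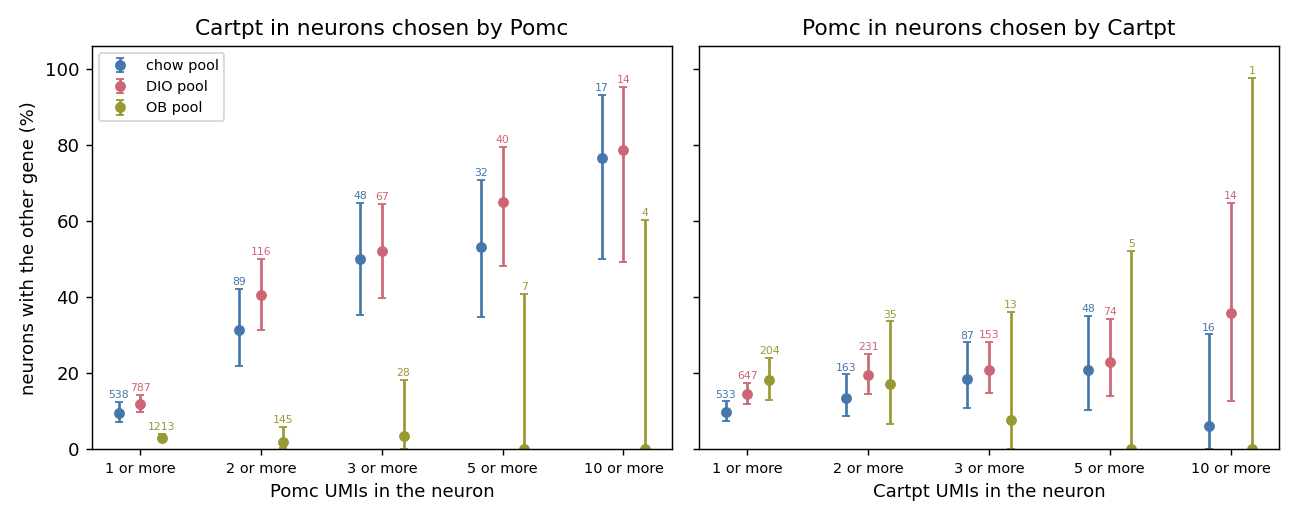
Share of neurons with the other gene (percent, exact 95% bars), for neurons chosen by at least 1, 2, 3, 5 or 10 Pomc UMIs (left) or Cartpt UMIs (right), with the number of neurons above each bar. In chow and DIO the left shares climb from 9.67% and 11.9% to 76.5% and 78.6%, and in OB they stay at 3.57% or less.

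Pomc neurons with Cartpt also held arcuate genes more often in the counts at hand. Of the 24 chow neurons with 3 or more Pomc UMIs and Cartpt, Lepr was seen in 66.7% [44.7 to 84.4] and Npy1r, a receptor of neuropeptide Y, in 70.8% [48.9 to 87.4]. Of the 24 without Cartpt, it was 45.8% [25.6 to 67.2] and 41.7% [22.1 to 63.4]. In DIO, Lepr was seen in 71.4% [53.7 to 85.4] of 35 with Cartpt and 46.9% [29.1 to 65.3] of 32 without. The intervals overlap in each case, and the neurons with Cartpt also held more Pomc, a median of 12 UMIs against 6 in chow and 6 against 4 in DIO.

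By level over the 21 classes, the genes most like Pomc were Fam122b, Txlna, Slc10a1, Huwe1 and Pon2, with Pearson correlations of log2(CPM + 1) from 0.72 to 0.66 among 14686 genes. Those most like Cartpt were Mccc2, Nckap5, Greb1l, Xkr4 and Cacnb4, from 0.73 to 0.67. The 2 genes had a correlation of 0.28 with each other. These are descriptions over 21 classes that share nuclei and libraries.

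Compared with all other neurons, those with 2 or more Pomc UMIs held most excess of Pon2, Cdc20b, Tbx3os1, Npy1r and Gm30524 in chow and of Cd38, Fn1, Pon2, Npy1r and A4galt in DIO. Npy1r was at 122 CPM against 6.47 in chow and 149 against 7.88 in DIO. Tbx3os1, which overlaps the start of Tbx3, was at 110 CPM against 5.12 in chow. Cartpt itself was 7.44-fold higher in these neurons in chow and 8.12-fold in DIO, but at 5.25 CPM against 8.87 in OB. In OB the leading gene was Pon2, with only 6 UMIs. For neurons with 2 or more Cartpt UMIs, the leading genes were Pmch in chow and OB, at 344 against 13.0 CPM and 587 against 16.8 CPM, and the transcription factor Erg in DIO, at 44.3 against 2.06 CPM.

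Rapamycin was compared with vehicle first over all neurons, where fewer neurons that make a gene and less RNA in each cannot be told apart. In chow, Pomc was at 13.6 CPM with rapamycin and 18.4 CPM with vehicle, a log2 ratio of -0.43 [-0.62 to -0.25]. The DIO levels were 19.05 and 20.8 CPM, or -0.12 [-0.29 to 0.04], and the OB levels 46.2 and 60.9 CPM, or -0.40 [-0.58 to -0.22]. For Cartpt the chow levels were 15.9 and 22.02 CPM, a log2 ratio of -0.47 [-0.64 to -0.30]. Those of DIO were 19.4 and 23.9 CPM, or -0.30 [-0.46 to -0.15], and those of OB 9.09 and 11.5 CPM, or -0.33 [-0.74 to 0.09]. Both genes were lower with rapamycin in each pool by this hashtag call, with intervals that reach past 0 for Pomc in DIO and Cartpt in OB. With hashtags called by tag ratio, Cartpt in OB had a log2 ratio of 0.0045 [-0.35 to 0.37], and with equal class weights 0.097, so its direction there depends on these choices.

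A gene is counted as past the threshold when it was at least 25% higher or at least 20% lower. By this count both members were lower in chow and in OB, and neither was in DIO. The OB call of Cartpt was lost with hashtags called by tag ratio, as given above, and so was that of Pomc, at -0.18. Among all genes with at least 200 UMIs, 2.18% of 12720 were past it in chow, 0.605% higher and 1.57% lower. In DIO 7.51% of 12836 were, 5.85% higher and 1.66% lower, and in OB 7.94% of 10539, 4.96% higher and 2.98% lower. The median log2 ratio of all genes was -0.03, 0.04 and 0.04. The central 90% of genes ran from -0.22 to 0.15 in chow, from -0.21 to 0.34 in DIO and from -0.26 to 0.32 in OB.

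The OB difference of Pomc rested on few nuclei, and the glial level differed in the same direction. Without the single nucleus with the most Pomc in each hashtag the log2 ratio was -0.10, and without the 4 neurons with 10 or more UMIs it was 0.05. Glial nuclei of OB held 75.8 CPM [61.9 to 91.9] of Pomc with rapamycin and 114 CPM [94.6 to 136] with vehicle, and the Pax7/Tbx19-type nuclei were 2 and 45. In chow, glial Pomc was 1.75 and 6.29 CPM from 1 and 3 UMIs. The part of the background in the neuronal ratios was not tested.

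In chow and DIO the share of strong neurons was also lower with rapamycin at full depth, though the intervals overlap. Neurons with 3 or more Pomc UMIs were 0.363% [0.211 to 0.580] with rapamycin and 0.603% [0.407 to 0.860] with vehicle in chow. In DIO they were 0.470% [0.310 to 0.682] and 0.901% [0.642 to 1.23]. Neurons with 3 or more Cartpt UMIs were 0.853% [0.610 to 1.16] and 0.945% [0.695 to 1.254] in chow and 1.252% [0.981 to 1.57] and 1.85% [1.47 to 2.30] in DIO. Median depths were 5937 UMIs with rapamycin and 5877 with vehicle in chow, but 5389 and 6136.5 in DIO. Thinned to 2000 UMIs, neurons with 3 or more Pomc UMIs were 7 of 4680 and 12 of 4965 in chow. In DIO they were 7 of 5718 and 13 of 4311. Those with 3 or more Cartpt UMIs were then 6 and 9 in chow and 21 and 14 in DIO. The lower DIO share for Cartpt was thus not seen at equal depth.

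Within the Tbx3/Prdm12/Nr5a2 and Lepr classes the difference did not point the same way. In the Tbx3/Prdm12/Nr5a2 class, Pomc was at 218 CPM with rapamycin and 121 with vehicle in chow, and at 258 and 166 in DIO, or log2 ratios of 0.85 [0.28 to 1.44] and 0.64 [0.20 to 1.08]. Without the top nucleus of each hashtag these were 1.01 [0.28 to 1.77] and 0.37 [-0.16 to 0.89]. In OB the class held 95.4 and 168 CPM, from 16 and 9 UMIs, with a log2 ratio of -0.82 [-2.08 to 0.54] that turned to 1.11 [-1.01 to 4.29] without the top nuclei. The chow and DIO classes held 50 and 46, and 48 and 74, neurons, so each value depends on which few neurons were captured. Tbx3, which helps set this class, was itself lower with rapamycin in DIO neurons, at 4.38 against 5.66 CPM, -0.37 [-0.70 to -0.04]. Other neurons entering the class and another Pomc level in the same neurons therefore cannot be told apart there.

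In the Lepr class chow neurons held 103 CPM of Pomc with rapamycin and 98.8 CPM with vehicle, DIO neurons 78.9 and 64.7 CPM, and OB neurons 41.97 and 21.1 CPM. Cartpt there was at 76.3 and 70.2, 138 and 115, and 4.20 and 31.7 CPM, the last from 2 and 6 UMIs. The log2 ratios in chow and DIO lay between 0.07 and 0.28 for both genes, with intervals that include 0. The lower means over all neurons were thus not seen in either of these classes of chow or DIO for Pomc.

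In the Pmch class Cartpt was lower with rapamycin in chow and DIO and higher in OB. It was at 473 CPM [379 to 583] with rapamycin and 710 CPM [622 to 808] with vehicle in chow, and at 139 CPM [96.7 to 193] and 233 CPM [187 to 286] in DIO. In OB it was at 821 CPM [546 to 1187] and 249 CPM [133 to 426]. This gives log2 ratios of -0.59 [-0.96 to -0.23] for chow, -0.74 [-1.35 to -0.16] for DIO and 1.72 [0.72 to 2.79] for OB. Without the top nucleus of each hashtag they were -0.75, -0.87 and 2.28. The numbers of neurons were 18 and 31, 27 and 40, and 8 and 10.

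**Figure D5:**
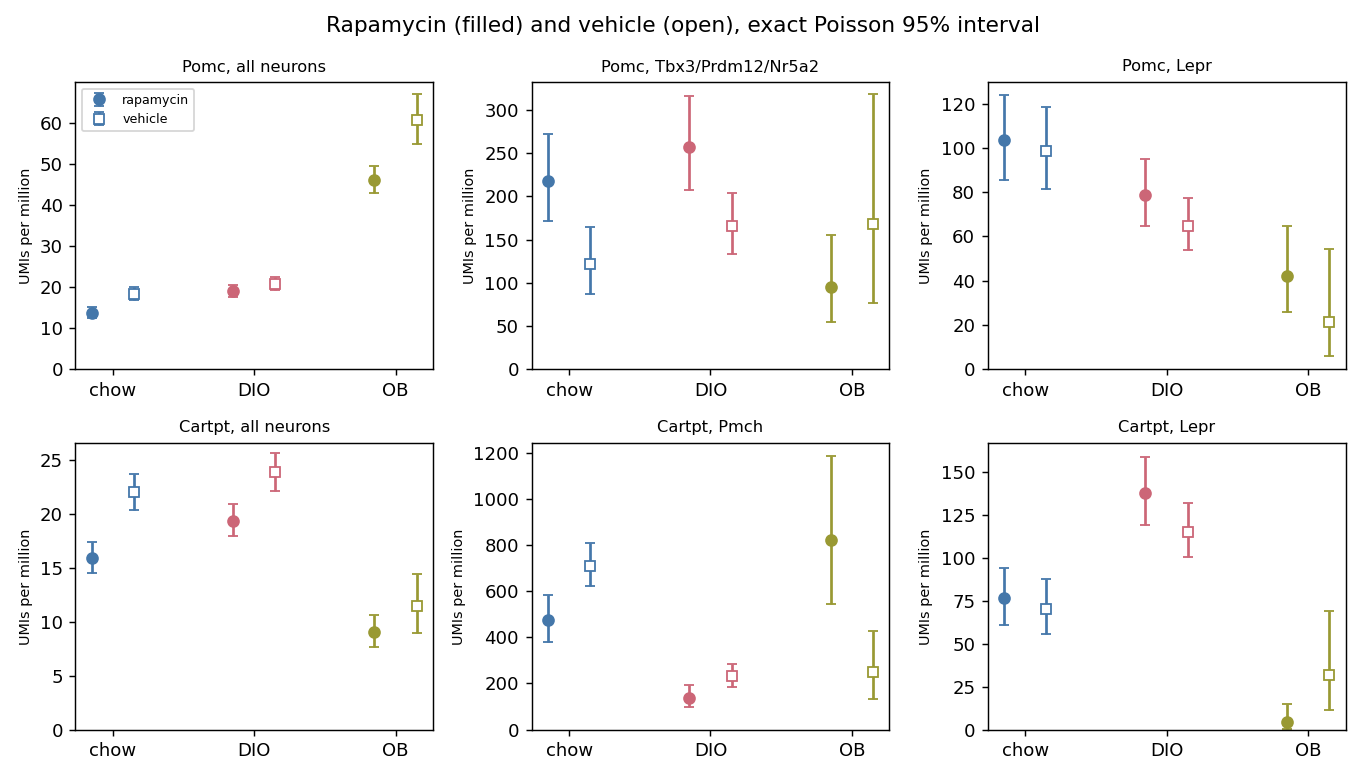
Pomc (top) and Cartpt (bottom) level in CPM with rapamycin (filled circles) and vehicle (open squares) in each pool, in all neurons and in 2 classes each, with exact Poisson 95% bars for counting error and axes from 0. Over all neurons each rapamycin value lies below its vehicle value, while Pomc in the Tbx3/Prdm12/Nr5a2 class is higher with rapamycin in chow and DIO.

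Vehicle neurons were then compared between pools. Each kind of mouse was captured as 1 pool, so diet or genotype cannot be told apart from the capture. Of 12721 genes, 33.9% were past the threshold in DIO over chow, 12.6% higher and 21.4% lower. In OB over chow it was 29.6% of 11616, 12.2% higher and 17.4% lower. In DIO neither member was past it, with log2 ratios of 0.17 [0.01 to 0.34] for Pomc and 0.12 [-0.04 to 0.27] for Cartpt. In OB, Pomc was higher by a log2 of 1.73 [1.54 to 1.91], at a level below that of OB glia, and Cartpt lower by -0.94 [-1.31 to -0.59], at 11.5 against 22.02 CPM. The central 90% of genes ran from -0.68 to 0.52 in DIO over chow, which holds both members, and from -0.57 to 0.57 in OB over chow, which holds neither.

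By class, the vehicle DIO neurons held less Pomc and more Cartpt than chow in the Lepr class. Lepr, which sets this class, was itself higher in vehicle DIO neurons, at 36.2 against 23.9 CPM, 0.60 [0.46 to 0.74]. Other neurons entering the class and another level in the same neurons therefore cannot be told apart. Pomc was at 64.7 against 98.8 CPM, a log2 ratio of -0.61 [-0.99 to -0.23], and Cartpt at 115 against 70.2 CPM, 0.71 [0.34 to 1.10]. In the Pmch class Cartpt was at 233 against 710 CPM, -1.61 [-1.98 to -1.25]. The same directions were seen in the rapamycin nuclei, with -0.39 [-0.78 to -0.01] for Pomc and 0.85 [0.48 to 1.24] for Cartpt in the Lepr class and -1.77 [-2.38 to -1.19] for Cartpt in the Pmch class. The rapamycin nuclei came from the same captures as the vehicle nuclei, so they do not repeat the comparison of pools independently. The Tbx3/Prdm12/Nr5a2 class did not show the Lepr-class pattern for Pomc, which was at 166 against 121 CPM in vehicle neurons, 0.45 [-0.10 to 1.03], and 258 against 218 CPM in rapamycin neurons, 0.24 [-0.21 to 0.70]. Cartpt in that class was 1.06 [0.14 to 2.07] with vehicle and -0.30 [-1.18 to 0.57] with rapamycin.

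In OB, Cartpt was lower than in chow in the Lepr and Tbx3/Prdm12/Nr5a2 classes. Lepr, which sets the first of these classes, was higher in vehicle OB than in vehicle chow neurons, by 0.36 [0.12 to 0.59]. With both treatments together, the Lepr class of OB differed from chow by a log2 of -2.78 [-3.93 to -1.82], on 9 and 168 UMIs. The Tbx3/Prdm12/Nr5a2 class of chow was at least 5.56-fold higher than OB, which had 0 UMIs against a floor of 3 counts for the class. In the Pmch class the difference was -0.23 [-0.69 to 0.20], but -1.51 [-2.44 to -0.71] in vehicle neurons alone and 0.80 [0.13 to 1.42] in rapamycin neurons alone. In the Lepr class it was -1.15 [-2.64 to 0.04] with vehicle and -4.18 [-7.25 to -2.29] with rapamycin. Whether these classes differ from the Pmch class in this was not tested.

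The other genes of the pathway were taken as a list of 32, made of enzymes that cut the precursor, receptors, inputs and regulators. With rapamycin, 0 of the 22 with at least 200 UMIs passed the threshold in chow. In DIO, of 21, Pcsk1n and Nkx2-1 were higher and Pcsk1 and Tbx3 lower. In OB, of 20, Pcsk1n and Foxo1 were higher and Pcsk1 lower. Over all genes, 2.18%, 7.51% and 7.94% were past the threshold in these comparisons. The medians of the list were 0.02, -0.04 and 0.03, beside -0.03, 0.04 and 0.04 over all genes.

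Pcsk1, the convertase that makes the first cuts in the precursor, was at 40.6 CPM with rapamycin and 52.0 with vehicle in DIO, a log2 ratio of -0.36 [-0.46 to -0.25], and at 33.3 and 52.9 in OB, -0.67 [-0.86 to -0.47]. Pcsk1n, which encodes the inhibitor proSAAS, went the opposite way, at 57.2 and 33.9 CPM in DIO, 0.75 [0.64 to 0.87], and 96.4 and 53.8 in OB, 0.84 [0.67 to 1.01]. Between vehicle pools, Pcsk1, Lepr and Stat3 were past the threshold on the higher side and Pcsk1n and Nkx2-1 lower in DIO over chow, of 21 measured. In OB over chow, Pcsk1, Agrp, Lepr and Foxo1 were higher and none lower, of 20. Over all genes the shares past the threshold were 33.9% and 29.6%, so the list was past it no more often than genes at large. In both comparisons Pcsk1 was higher, by 0.47 [0.36 to 0.58] and 0.51 [0.33 to 0.68].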

How the data were processed

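Nuclei of 3 pools were analysed from the deposited raw UMI counts, which the authors made with Cell Ranger. The version was 6.0.0 on mm10 per the submitters' processing notes, and 6.0.0 for chow and DIO but 7.0.1 for OB per the file headers (27998 and 31053 genes). Whether intronic reads were counted is not given in the sources used here. In each pool the first hashtag marks rapamycin and the second vehicle, per the deposited hashtag list.

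The filter kept nuclei of 500 or more UMIs, 300 or more genes and less than 5% mitochondrial UMIs. Hashtags were called with HTODemux (Seurat 5.3.0, R 4.3.3, quantile 0.99), and doublets between hashtags (542, 450 and 618) were removed, while doublets within a hashtag cannot be seen. Neurons without a call enter pool values but no treatment value. Gh, Prl and Cga miss pituitary nuclei that make Pomc, so each nucleus was assigned to the seed profile of highest multinomial likelihood, with seeds set by marker UMIs and a pseudocount of 0.1. Oacyl was added to the pituitary genes for setting neurons aside after the data were seen. CPM are sums over nuclei with exact Poisson intervals, ratios have exact conditional binomial and shares Clopper-Pearson intervals, and the floor is 3 counts. Computation used Python 3.11.15, numpy 2.4.6, scipy 1.17.1 and pandas 2.3.3, and edgeR 4.0.16 for TMM factors alone. The ratio step was tested on simulated data.

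The members and gene lists were chosen with earlier results of these data known. Named genes are the members, the pathway list (processing, receptors, Agrp, inputs, regulators), the 5 genes of highest correlation with each member over classes (pools summed, at least 200 UMIs, gate markers left out), and the 5 of highest CPM ratio in neurons with 2 or more UMIs of it (at least 50 UMIs in all). Alternatives were another hashtag call (a tag ratio of at least 2), deeper nuclei, TMM, shared class weights, thinning, and leaving out nuclei with hormone UMIs, the top nucleus or the deepest 2%. Shared class weights give each class its mean share of UMIs over the 2 groups compared.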

Additional observations from a re-analysis of the deposited data

Results flagged for a closer look

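Cartpt in the Pmch class pointed opposite ways between pools, with log2 ratios of rapamycin to vehicle of -0.59 in chow and -0.74 in DIO but 1.72 in OB, and each interval leaves out 0. The difference between the pools was not tested, and the OB value rests on 28 and 13 UMIs in 8 and 10 neurons.

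In GABAergic neurons Cartpt had a log2 ratio of -0.38 [-0.66 to -0.10] in DIO and 1.51 [0.02 to 3.46] in OB, also untested. The OB value comes from 34 and 4 UMIs, and without the top nucleus of each hashtag it was 1.41 [-0.31 to 3.78].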

How the results depend on the processing

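The pituitary and background RNA bears most on Pomc, and the number of positive nuclei on Cartpt in small classes. Intervals cover counting error only, and each group is 1 sample. No paired analysis was possible because each treatment of a pool is 1 sample and the numbers pair nothing.

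Of 114 values under other settings 87 stayed within the counting interval (for shares of all genes, within 1.5 times), and of 24 under settings chosen after seeing the data 14 did. The cause was not tested where a value moved. For Pomc, rapamycin over vehicle in OB had a log2 ratio of -0.18 with hashtags called by tag ratio, -0.10 without the top nucleus, -0.066 without the deepest 2% and, added later, -0.85 with the set-aside nuclei put back and 0.051, the opposite direction, without the 4 neurons of 10 or more UMIs. With the set-aside nuclei put back it was 0.36 in DIO. Over all nuclei the values were -0.66 (chow), 1.57 (DIO) and -3.79 (OB). For vehicle OB over chow, the Pomc ratio was 1.53, 1.46, 1.40, 2.33 and 1.21 under these same settings in turn, and 5.24 over all nuclei. For vehicle DIO over chow it was 0.62 after thinning and -0.033, reversed, over all nuclei.

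For Cartpt, equal class weights gave rapamycin ratios of -0.29 (chow), -0.068 (DIO) and 0.10 (OB), and -0.10 for vehicle DIO over chow. With hashtags called by tag ratio, Cartpt in OB was at 0.0045 for rapamycin over vehicle. Thinning gave -0.12 for rapamycin in DIO and -0.46 for vehicle OB over chow.

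Choosing neurons by 2 or more UMIs gave Cartpt in 31.5%, 40.5% and 2.07% of Pomc neurons (chow, DIO, OB) and Pomc in 13.5% and 19.5% of Cartpt neurons (chow, DIO). After thinning, Cartpt was in 1.58% of OB Pomc neurons, and Pomc in 7.24% of chow and 8.93% of OB Cartpt neurons. Pomc at a hormone sum of 2 or more was 1371 CPM in DIO and 1901 CPM in OB, and at 20 or more 191 CPM in OB. Among genes with at least 50 UMIs, 7.59%, 13.6% and 16.3% were past the fold threshold (chow, DIO, OB).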

Other observations

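In DIO, Cd38, which encodes an enzyme that consumes NAD, had 42 of its 64 neuronal UMIs in 11 of the 116 neurons with 2 or more Pomc UMIs, against 18 of the 10193 other neurons with a UMI. The extracellular matrix gene Fn1 was seen in 21 of these 116 neurons and 68 of the others. Erg was seen in 37 of the 231 DIO neurons with 2 or more Cartpt UMIs and in 88 of 10078 others.

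Slc32a1, the vesicular GABA transporter, had no UMI in any of the 48 chow and 67 DIO neurons with 3 or more Pomc UMIs, while 6.71% and 5.19% of the other neurons had one. Zeros in sets of this size allow up to 7.40% and 5.36%, so they cannot show that Pomc neurons hold Slc32a1 less often. Of the same Pomc neurons 56.2% and 61.2% held Gad1 or Gad2.

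Mccc2, the gene most like Cartpt over the classes, lies on the same chromosome, 38.4 kb from it with 1 gene between.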
